A study of Mus musculus with 70 samples.

Results

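The genes described here are 10 genes of adipogenesis and lipid storage, chosen by name: Pparg, Lpl, Cd36, Fabp4, Plin1, Pnpla2, G0s2, Lipe, Adipoq and Car3. They are 10 of the 55011 gene symbols in the count table of a mouse skeletal muscle study, and all 10 were found there. They were followed through all 70 RNA-seq libraries, which fall into 28 groups. The libraries hold MmSCs, the mesenchymal stromal cells of muscle, in 46 cases, and otherwise other sorted muscle cells or whole muscle. The study asked how MmSCs respond to injury, to injected cytokines and to dystrophic disease.

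In the cytokine experiment, uninjured C57BL/6J mice received an intraperitoneal injection and MmSCs were sorted from the hindlimb. The injected cytokines were Osm (oncostatin M), Il-1b, Il-17A and TNFa, and all 4 mixed were sampled at 2 h (n = 2), 4 h (1 library) and 8 h (n = 2). Each cytokine alone, and Osm paired with each of the other 3, was sampled at 2 h (n = 2 each), against mice given PBS (n = 2, time not labelled). In the compartment experiment, CD31+ cells, CD45+ cells, MmSCs and satellite cells (MuSCs) came from C57BL/6J hindlimb muscle 1 day after cardiotoxin injury and from uninjured muscle (n = 3 each). Cardiotoxin is a snake venom toxin that destroys muscle fibres. Thy1.1+ and Thy1.1- MmSCs (n = 3 each) came from injured Il6RD mice, a line with a Thy1.1 reporter of Il6, 12 h after cardiotoxin. MmSCs of Il1b-KO mice (n = 3) were set against those of Il1b-WT littermates (n = 2), both 1 day after cardiotoxin. DMDmdx mice carry a mutation that removes dystrophin, and their MmSCs were sorted at 3 ages, 2.5 and 7 weeks (n = 3 each) and 12.5 weeks (n = 2). Injured tibialis anterior muscle of C57BL/6J mice was profiled whole at 7 days under anti-Cxcl5 or IgG (n = 3 each). The labels do not say that libraries of a group came from separate animals, so p-values measure only the spread between these libraries, which may be technical.

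Fat cells are made from progenitors under the control of the nuclear receptor encoded by Pparg. They store triglyceride in droplets coated by perilipin (Plin1), take up fatty acid freed by lipoprotein lipase (Lpl) through Cd36 and Fabp4, and release it again through adipose triglyceride lipase (Pnpla2) and hormone-sensitive lipase (Lipe). The small protein G0s2 binds and inhibits Pnpla2, adiponectin (Adipoq) is a hormone of mature fat cells, and Car3 is a carbonic anhydrase abundant in fat cells and in slow muscle fibres. MmSCs are the main source of the fat cells that appear in damaged or dystrophic muscle, while capillary endothelium and macrophages also use Cd36, Fabp4, Lpl and Pparg.

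Each sorted population carried the marker genes of its label. The 10 MmSC markers, among them Pdgfra, Ly6a and Col3a1, were all detected in every MmSC group and summed to between 18400 and 121000 scaled CPM in MmSC libraries. CPM are a gene's counts relative to the library total, per 1000000, here scaled by the factors of each experiment's fit. CD31+ cells had 8540 to 11400 scaled CPM of endothelial markers, CD45+ cells 5360 to 7510 of leukocyte markers, and MuSCs 1380 to 3200 of satellite cell markers. Markers of other cells were present too. Mural cell markers summed to 357 to 1370 in MuSCs and 287 to 747 in CD31+ cells, against 4.19 to 228 in MmSC libraries. Satellite cell markers reached 701 to 773 in Il1b-KO, 750 to 752 in Il1b-WT and 458 to 515 in 7-week DMDmdx MmSCs. In MmSCs given Il-1b they reached 586 to 630. Myf5 was at 0 in each of these groups, and Pax7 in the Il1b-KO and Il-1b groups. The part of these lists in the levels of the 10 genes was not tested. The 8 markers of mature fat cells outside the 10 genes summed to 1.79 to 23.9 scaled CPM in MmSC libraries and 2.04 to 10.3 in CD45+ libraries. They reached 158 to 381 in CD31+ cells, 16.7 to 171 in MuSCs and 239 to 626 in whole muscle. In uninjured CD31+ cells and MuSCs most of that sum was Thrsp, a lipogenic gene, with means of 308 and 131, while the droplet gene Cidec averaged 0.474 and 0.114. Library totals ran between 2252373 and 8408842 counts. Reads of the 10 genes were counted without a stated strand setting, and Lipe shares 918 exonic bases with the antisense gene 4732471J01Rik, so those reads cannot be told apart.

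The stretches before the starts of G0s2, Pnpla2 and Pparg are shown because the first pair carries the cytokine results and Pparg is the master regulator that was close to absent in MmSCs. Each is the run of bases just before the RefSeq start on GRCm38.p6, and 7 of the 10 genes have such a window. Capitals mark the GC box (GGGCGG), the NF-kB consensus and the C/EBP letters (TTGCNNAA), searched on both strands with no overlap between them in these windows.

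G0s2: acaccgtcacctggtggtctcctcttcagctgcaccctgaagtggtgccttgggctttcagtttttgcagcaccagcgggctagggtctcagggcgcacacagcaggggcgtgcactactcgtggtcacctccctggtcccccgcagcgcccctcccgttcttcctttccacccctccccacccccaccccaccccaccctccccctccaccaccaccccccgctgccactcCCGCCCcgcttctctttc

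Pnpla2: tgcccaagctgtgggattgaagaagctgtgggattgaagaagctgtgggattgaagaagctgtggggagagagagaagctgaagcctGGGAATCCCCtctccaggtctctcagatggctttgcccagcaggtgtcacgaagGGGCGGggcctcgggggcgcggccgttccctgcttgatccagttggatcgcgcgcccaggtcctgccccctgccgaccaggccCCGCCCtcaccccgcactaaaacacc

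Pparg: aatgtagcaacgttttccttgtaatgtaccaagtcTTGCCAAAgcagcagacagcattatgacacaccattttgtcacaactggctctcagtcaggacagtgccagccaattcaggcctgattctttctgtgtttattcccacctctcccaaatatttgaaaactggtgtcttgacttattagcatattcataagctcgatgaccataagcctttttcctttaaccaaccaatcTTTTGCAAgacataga

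G0s2 lies on chromosome 1 at 193272161 to 193273217 on the minus strand, and its window chr1:193273189-193273438 held 1 GC box at position -18 from the start and none of the NF-kB, C/EBP, STAT (TTCNNNGAA) or FOXO (GTAAACA) letters. Pnpla2 lies on chromosome 7 at 141455198 to 141460743 on the plus strand, and its window chr7:141454938-141455187 held 1 NF-kB consensus at -163 and 2 GC boxes at -109 and -26. Pparg lies on chromosome 6 at 115360951 to 115490399 on the plus strand and has 3 annotated starts. The window of the third, chr6:115421816-115422065, held 2 C/EBP matches at -215 and -16. Those of the first and second, not printed, held no C/EBP match. The first had 1 GC box at -177, and the second had 2 at -210 and -127. Among 32851 RefSeq windows of this length, 32.7% held the GC box, 7.25% the NF-kB consensus, 9.56% the C/EBP letters, 7.02% the STAT letters and 3.17% the FOXO letters. A match is a description of the letters and says nothing of binding.

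**Figure D1:**
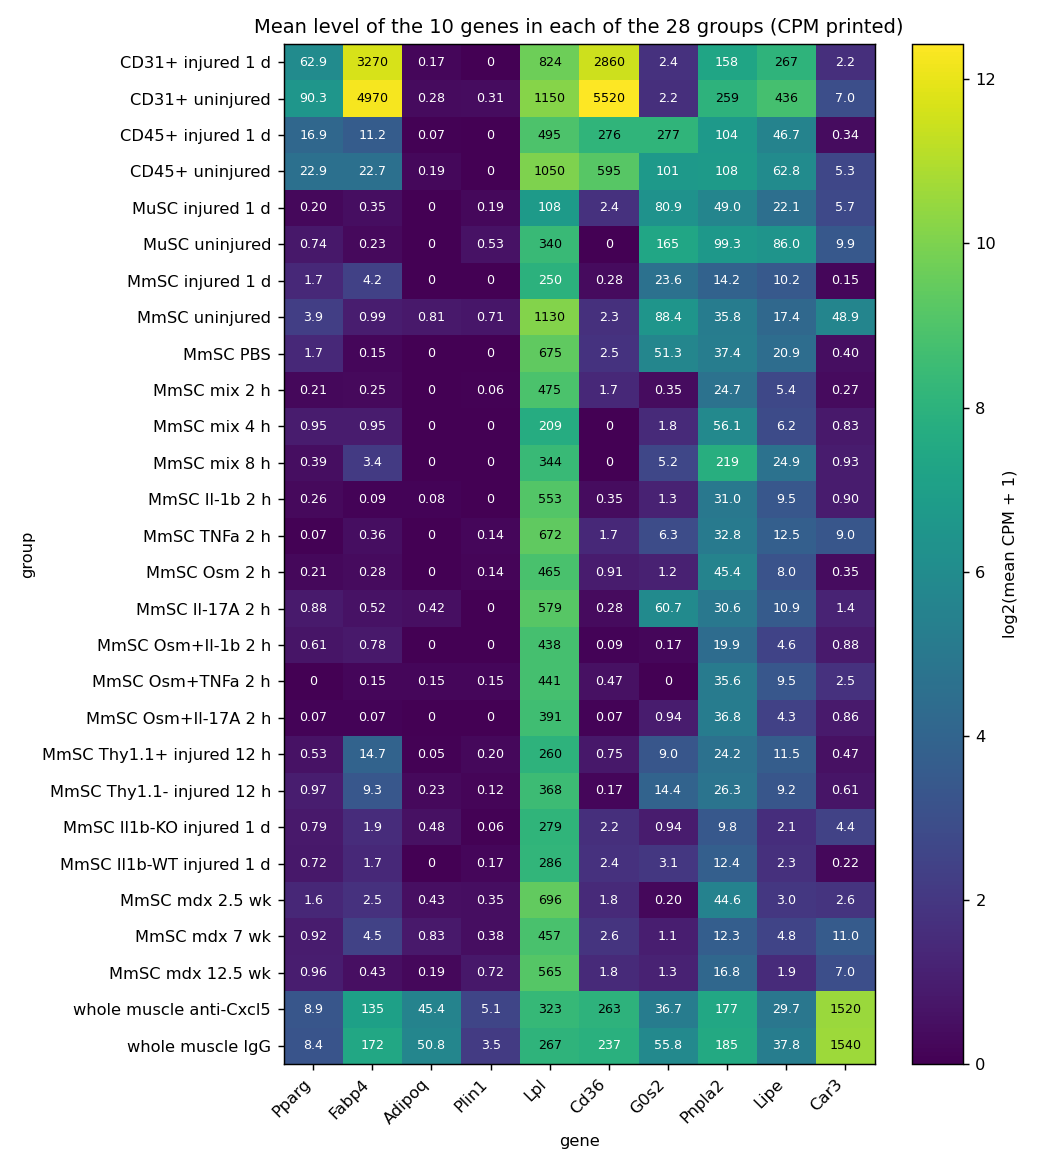
Mean CPM, without scaling factors, of the 10 genes (columns) in the 28 groups (rows), with each mean printed and coloured on a log2(CPM + 1) scale. Lpl was above 100 CPM in every group, Fabp4 and Cd36 peaked in CD31+ cells, and Adipoq was above 1 CPM only in whole muscle.

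Uninjured MmSCs carried mainly Lpl and G0s2, less of Pnpla2 and Lipe, and almost none of the fat cell genes Adipoq and Plin1. Per kilobase of annotated exon, Lpl had 131 CPM per kb (range 100 to 163 over 3 libraries) and G0s2 had 122 (93.9 to 151), and these ranges overlapped. Pnpla2 followed at 14.2 CPM per kb (11.5 to 16.3) and Lipe at 3.6 (2.79 to 4.94), each apart from its neighbours among these 4 genes. Pparg had 1.61 CPM per kb, and Cd36, Adipoq, Fabp4 and Plin1 were each below 1.

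Adipoq had 0 counts in 32 of the 46 MmSC libraries and fewer than 3 counts in 40 of them. Plin1 had 0 counts in 30 and fewer than 3 counts in 41. The highest MmSC library reached 2.49 CPM of Adipoq and 2.13 of Plin1. In most MmSC libraries these genes, which mark mature fat cells, were not detectable above the floor of 3 counts.

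Car3 did not behave as 1 level in uninjured MmSCs. Its libraries held 182, 2.96 and 2.48 scaled CPM, so replicate 1 stood alone. The summed markers of muscle fibres were 420, 321 and 155 scaled CPM in the same 3 libraries. That replicate was also the only one of the 3 with Plin1, at 2.72 scaled CPM. Its sum of the mature fat cell markers was not raised, with 8.51, 8.89 and 23.9 in replicates 1, 2 and 3.

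The 4 sorted compartments of uninjured muscle were compared to ask which cells carry these genes. CD31+ cells carried most of the fatty acid uptake genes. Of the 8 genes tested, 5 were higher and 2 lower in CD31+ cells than in MmSCs, where 47.0% of all 16374 tested genes were called in either direction (edgeR quasi-likelihood test, adjusted p below 0.05). Adipoq and Plin1 did not pass the filter on low counts.

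Fabp4, the fatty acid carrier, had 4980, 4370 and 4950 scaled CPM in CD31+ cells, against 3.57, 0.228 and 0 in MmSCs (log2 difference 11.66 ± 0.57 SE, edgeR adjusted p = 1.79e-13). Cd36, the fatty acid transporter, had 5280, 4540 and 6100 in CD31+ cells, against 4.59, 2.73 and 1.13 in MmSCs (10.81 ± 0.44, edgeR adjusted p = 6.62e-14). No library of one group came near the other for either gene. Pparg was higher by 4.18 ± 0.34, Lipe by 4.30 ± 0.26 and Pnpla2 by 2.54 ± 0.19 on the log2 scale. G0s2 went the other way, with 1.08, 2.84 and 2.38 scaled CPM in CD31+ cells against 105, 81.8 and 131 in MmSCs (-5.69 ± 0.72, edgeR adjusted p = 7.26e-07).

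CD45+ cells were higher than MmSCs in 5 of 8 genes and lower in 1, Car3, with 56.7% of all tested genes called. Cd36 had 725, 665 and 430 scaled CPM in CD45+ cells, Pparg 19.7, 27.5 and 22.3, and Fabp4 18.7, 17.8 and 31.5. All 3 stood above every uninjured MmSC library. MuSCs were higher in 2 genes, Lipe and Pnpla2, and lower in 4, namely Lpl, Cd36, Pparg and Car3, with 40.7% of all tested genes called. The differences of Car3 rested on replicate 1 of the uninjured MmSCs. Without that library they were 1.42 for CD31+ cells, 1.24 for CD45+ cells and 1.74 for MuSCs, of opposite sign to the values with it (-3.21, -3.46 and -3.01).

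Lpl, the enzyme that frees fatty acid from lipoproteins, was shared by 3 compartments. It had 937, 771 and 1620 scaled CPM in CD31+ cells, 1270, 933 and 1000 in CD45+ cells, and 1700, 1360 and 1050 in MmSCs. These groups overlapped, and neither difference from MmSCs passed the test (-0.30 ± 0.21 and -0.36 ± 0.21). MuSCs stood apart, at 312, 227 and 273 (-2.34 ± 0.22, edgeR adjusted p = 8.97e-09). G0s2 likewise did not separate CD45+ cells (108, 14.9 and 178) or MuSCs (128, 150 and 114) from MmSCs.

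Most of these genes were lower in MmSCs 1 day after injury, among them Lpl, Pnpla2 and G0s2. Of 8 tested genes 7 fell and none rose, where 41.8% of all 16374 tested genes were called and 23.6% were called lower. The median log2 change of the 8 genes was -1.88, against -0.22 over all tested genes. The MmSC markers summed to 18400 to 23400 scaled CPM in injured MmSCs, against 57400 to 79900 in uninjured MmSCs, and 6 of those 10 markers fell. In a bulk library, fewer cells of a kind and less RNA per cell cannot be told apart.

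Lpl had 244, 262 and 248 scaled CPM in injured MmSCs, against 1700, 1360 and 1050 in uninjured MmSCs (log2 change -2.45 ± 0.22, edgeR adjusted p = 8.55e-09). Pnpla2 had 13.9, 17.4 and 11.5, against 45.1, 34.6 and 49.3 (-1.59 ± 0.20, edgeR adjusted p = 9.87e-07). The groups did not overlap for either gene, and both calls held without any 1 library.

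G0s2, the inhibitor of Pnpla2, had 17.9, 31.4 and 21.8 scaled CPM in injured MmSCs, against 105, 81.8 and 131 in uninjured MmSCs (-2.16 ± 0.51, edgeR adjusted p = 0.00159). The mRNAs of the enzyme and of its inhibitor thus both fell. Lipe had 8.53, 15.2 and 6.96, against 29.1, 16.4 and 18.0 (-1.06 ± 0.26, edgeR adjusted p = 0.00244), and was at -0.60 with an adjusted p of 0.101 without uninjured replicate 1.

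The uptake and differentiation genes were at low levels throughout. Pparg had 2.13, 1.01 and 2.02 scaled CPM in injured MmSCs, against 5.61, 5.92 and 2.7 in uninjured MmSCs (-1.45 ± 0.42, edgeR adjusted p = 0.0073), and the call was lost without uninjured replicate 1 or 2 (adjusted p = 0.0699 and 0.0667). Cd36 had 0.142, 0.507 and 0.183, against 4.59, 2.73 and 1.13 (-3.32 ± 0.72, edgeR adjusted p = 0.000869). Endothelial markers summed to 12.8 to 18.9 scaled CPM in injured MmSCs, against 96.9 to 120 in uninjured MmSCs, with all 8 markers detected in injured MmSCs and 7 in uninjured MmSCs, where Cldn5 was at 0. Their part in the lower Cd36 and Pparg, genes that were high in CD31+ cells, was not tested.

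Car3 had 3 counts in all in injured MmSCs, against 1093 in uninjured MmSCs, a ratio of 456 (95% interval 156 to 2210, covering counting error only). Without uninjured replicate 1 the log2 change was -3.73 with an adjusted p of 0.0541. Muscle fibre markers summed to 3.13 to 14.2 scaled CPM in injured MmSCs, against 155 to 420 in uninjured MmSCs, with 7 and 10 of 10 markers detected (Myh2, Tnnc2 and Mb at 0 after injury). Mature fat cell markers summed to 1.85 to 4.06, against 8.51 to 23.9, with 5 and 6 of 8 detected. The part of either list was not tested. Fabp4 was the one tested gene above its uninjured level, at 3.84, 5.75 and 3.12 against 3.57, 0.228 and 0, which missed the threshold (1.53 ± 0.62, edgeR adjusted p = 0.0535). It passed with DESeq2 (1.55, adjusted p = 0.0427) and without uninjured replicate 1 (5.07, edgeR adjusted p = 0.000181).

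**Figure D2:**
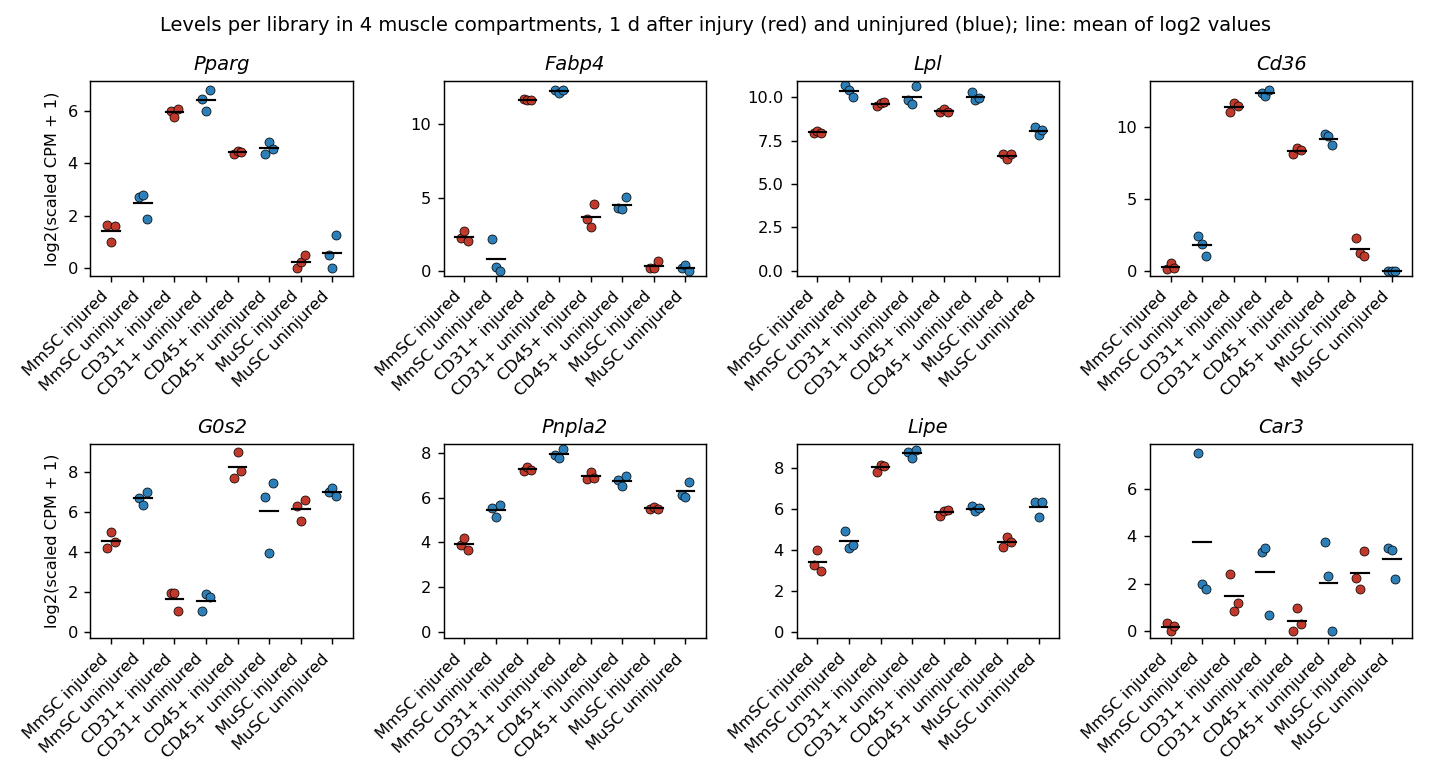
Log2(scaled CPM + 1) of the 8 tested genes in MmSCs, CD31+, CD45+ and MuSC libraries 1 day after injury (red) and uninjured (blue), where points are libraries and lines are means of the log2 values. Lpl and Pnpla2 of injured MmSCs lie below every uninjured MmSC library, while G0s2 of injured CD45+ cells lies above every uninjured CD45+ library.

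In the other compartments 3 or 4 of the 8 genes passed the threshold. In CD31+ cells 3 of 8 fell and none rose, where 23.5% of all tested genes were called (median of the 8 genes -0.64, of all tested genes -0.04). These were Cd36 with 2150, 3310 and 2880 scaled CPM in injured against 5280, 4540 and 6100 in uninjured CD31+ cells (-0.94 ± 0.27, edgeR adjusted p = 0.016), Pnpla2 (-0.70 ± 0.17) and Lipe (-0.69 ± 0.22). Pnpla2 held without any 1 library. Cd36 was lost without uninjured replicate 3 or injured replicate 1 (adjusted p = 0.0645 and 0.0783), and Lipe without those or uninjured replicate 1 (0.0936, 0.115 and 0.0666). Marker lists were lower in the same injured libraries. Mature fat cell markers summed to 158 to 170 scaled CPM in injured against 240 to 381 in uninjured CD31+ cells, with 7 of 8 detected in each (Cfd at 0 after injury, Adrb3 in uninjured cells). Muscle fibre markers summed to 42.6 to 89.4 against 114 to 158, with all 10 detected, and endothelial markers to 8540 to 9420 against 11100 to 11400, with all 8 detected. Their part in the falls of Cd36, Pnpla2 and Lipe was not tested.

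In CD45+ cells G0s2 rose while Lpl and Cd36 fell, 3 of 8 genes where 34.6% of all tested genes were called (medians -0.47 and -0.12). G0s2 had 210, 525 and 271 scaled CPM in injured CD45+ cells, against 108, 14.9 and 178 in uninjured CD45+ cells (1.74 ± 0.49, edgeR adjusted p = 0.00786), and the adjusted p was 0.057 without injured replicate 2. The make-up of these cells differed too. The neutrophil gene S100a8 was at 2150 to 3630 scaled CPM in injured against 348 to 1050 in uninjured CD45+ cells. Ly6g, another neutrophil gene, did not rise with it, at 2.37 to 8.95 against 2.64 to 17.1. The B cell gene Cd79a was at 1.03 to 9.47 against 202 to 925. The part of the cell mix in the rise of G0s2 was not tested. Lpl fell by 0.84 ± 0.21 and Cd36 by 0.87 ± 0.27 on the log2 scale, and Cd36 was lost without uninjured replicate 1 or 2 or injured replicate 1 (adjusted p = 0.0991, 0.0714 and 0.0857). Endothelial markers summed to 27.6 to 48.6 scaled CPM in injured against 63.4 to 149 in uninjured CD45+ cells, with all 8 detected, and their part was not tested.

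In MuSCs 3 of 8 genes fell and 1 rose, where 38.8% of all tested genes were called (medians -0.81 and -0.04). Lipe had 16.7, 23.7 and 20.2 scaled CPM in injured MuSCs, against 78.6, 47.3 and 79.7 in uninjured MuSCs (-1.78 ± 0.24, edgeR adjusted p = 3.48e-06). Lpl fell by 1.46 ± 0.21 and Pnpla2 by 0.82 ± 0.18. Muscle fibre markers summed to 189 to 239 scaled CPM in injured against 472 to 537 in uninjured MuSCs, with all 10 detected. Mature fat cell markers summed to 16.7 to 47.3 against 98.8 to 171, with 6 of 8 detected in each (Retn at 0 in both), and Thrsp averaged 32.1 against 131. The part of either list in the falls of Lipe, Lpl and Pnpla2 was not tested. Cd36 had 44 counts in injured MuSCs and 0 in uninjured MuSCs, so it was at least 2.99-fold higher against a floor of 3 counts per library.

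The difference between compartments was tested directly, as the log2 change with injury in MmSCs minus that in each other compartment. Lpl fell further in MmSCs than in CD31+ cells (difference -1.98 ± 0.30, edgeR adjusted p = 9.66e-05), CD45+ cells (-1.61 ± 0.29, adjusted p = 0.000267) and MuSCs (-0.998 ± 0.30, adjusted p = 0.0402). The first pair of calls held without any 1 library. The one against MuSCs was lost without any of 10 of the 12 libraries (adjusted p up to 0.366) and on library totals alone (-0.51). Pnpla2 fell in MmSCs but not in CD45+ cells, whose injured and uninjured libraries overlapped (difference -1.79 ± 0.27, edgeR adjusted p = 2.7e-05). G0s2 moved in opposite directions in MmSCs and CD45+ cells (-3.90 ± 0.71, edgeR adjusted p = 0.000237). Of 8 genes, 2 differed from CD31+ cells, 5 from CD45+ cells and 3 from MuSCs, where 12.5%, 25.0% and 7.64% of all tested genes did.

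The cytokine injections asked which signals reach uninjured MmSCs. G0s2 was the gene that answered nearly all of them, with the Pnpla2 response coming later. All comparisons below share the same 2 PBS libraries, so their values stand side by side and their likeness is no separate evidence. In this experiment 15965 genes were tested, 8 of the 10 among them, and Adipoq and Plin1 again did not pass the filter.

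After the mix, 2 of 8 genes were called at 2 h (G0s2 and Lipe lower, 38.5% of all tested genes called), 4 at 4 h (G0s2, Lpl and Lipe lower and Pnpla2 higher, 36.4%) and 5 at 8 h (G0s2, Lpl and Cd36 lower, Pnpla2 and Fabp4 higher, 28.4%). The median log2 change of the 8 genes was -0.07, -1.02 and -0.32 at the 3 times, against -0.06, -0.03 and 0.08 over all tested genes. The 4 h arm is 1 library with no replicate check: its errors and p-values assume that it varies like the other groups.

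G0s2 had 44.1 and 43.0 scaled CPM with PBS, 0 and 0.847 at 2 h of the mix, 1.79 at 4 h, and 4.90 and 4.24 at 8 h. Every library given the mix was far below PBS. The log2 change was -6.69 ± 0.65 at 2 h, -4.59 ± 0.69 at 4 h and -3.24 ± 0.46 at 8 h (edgeR adjusted p = 8.46e-08, 2.72e-05 and 2.05e-05). The 8 h level was above the 2 h level (3.45 ± 0.75, edgeR adjusted p = 0.00115), a comparison that called 35.3% of all tested genes.

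Pnpla2 had 33.7 and 29.8 scaled CPM with PBS, 28 and 32 at 2 h, 56.3 at 4 h, and 188 and 196 at 8 h. Its 2 h libraries overlapped PBS, and its 8 h libraries were the highest of any MmSC group. The log2 change was -0.08 ± 0.20 at 2 h, 0.82 ± 0.23 at 4 h and 2.60 ± 0.20 at 8 h (edgeR adjusted p = 0.773, 0.00708 and 4.88e-09). The 4 h call was lost without PBS replicate 2 (adjusted p = 0.0622). The mRNA of the lipase was thus highest at 8 h, when that of its inhibitor was still below PBS. Protein and lipase activity were not measured in these libraries.

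Lipe had 21.6 and 14.0 scaled CPM with PBS, 6.21 and 6.95 at 2 h, 6.2 at 4 h, and 16.6 and 26.9 at 8 h. It was low at the first pair of times and back among the PBS values at 8 h (-1.44 ± 0.33, -1.52 ± 0.42 and 0.29 ± 0.31, edgeR adjusted p = 0.00161, 0.00701 and 0.536), and the 4 h call was lost without PBS replicate 1 (0.0533). The rise between 2 h and 8 h passed the test itself (1.72 ± 0.33, edgeR adjusted p = 0.000348).

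Lpl had 597 and 549 scaled CPM with PBS, 481 and 672 at 2 h, 210 at 4 h, and 298 and 305 at 8 h. It fell at 8 h (-0.93 ± 0.17, edgeR adjusted p = 0.000326), and the single 4 h library was below both PBS libraries (-1.45 ± 0.23, edgeR adjusted p = 3.28e-05 with the spread of the other groups). At 2 h the value depended on scaling: 0.01 ± 0.17 with the scaling factors and -0.51 (adjusted p = 0.0153) on library totals alone, a scale on which the median of all genes moved by -0.515.

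The remaining genes rested on few counts. Cd36 had 33 counts with PBS and 0 at 8 h, at least 5.39-fold lower against 3 counts per library. Fabp4 had 2 counts with PBS and 47 at 8 h, a ratio of 23.6 (95% interval 6.17 to 200). Both 8 h calls were lost without either 8 h library (adjusted p = 0.105 and 0.0863 for Cd36, 0.18 and 0.0585 for Fabp4) and without PBS replicate 1 (0.0527 and 0.0783), Fabp4 also without PBS replicate 2 (0.23). DESeq2 gave neither an adjusted p. Endothelial markers summed to 216 to 267 scaled CPM with PBS, 128 to 145 at 2 h, 52.8 at 4 h and 53.7 to 58.8 at 8 h, with 6, 8, 5 and 5 of the 8 markers detected (Cldn5 at 0 with PBS and at 4 and 8 h). Their part in the Cd36 values was not tested.

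**Figure D3:**
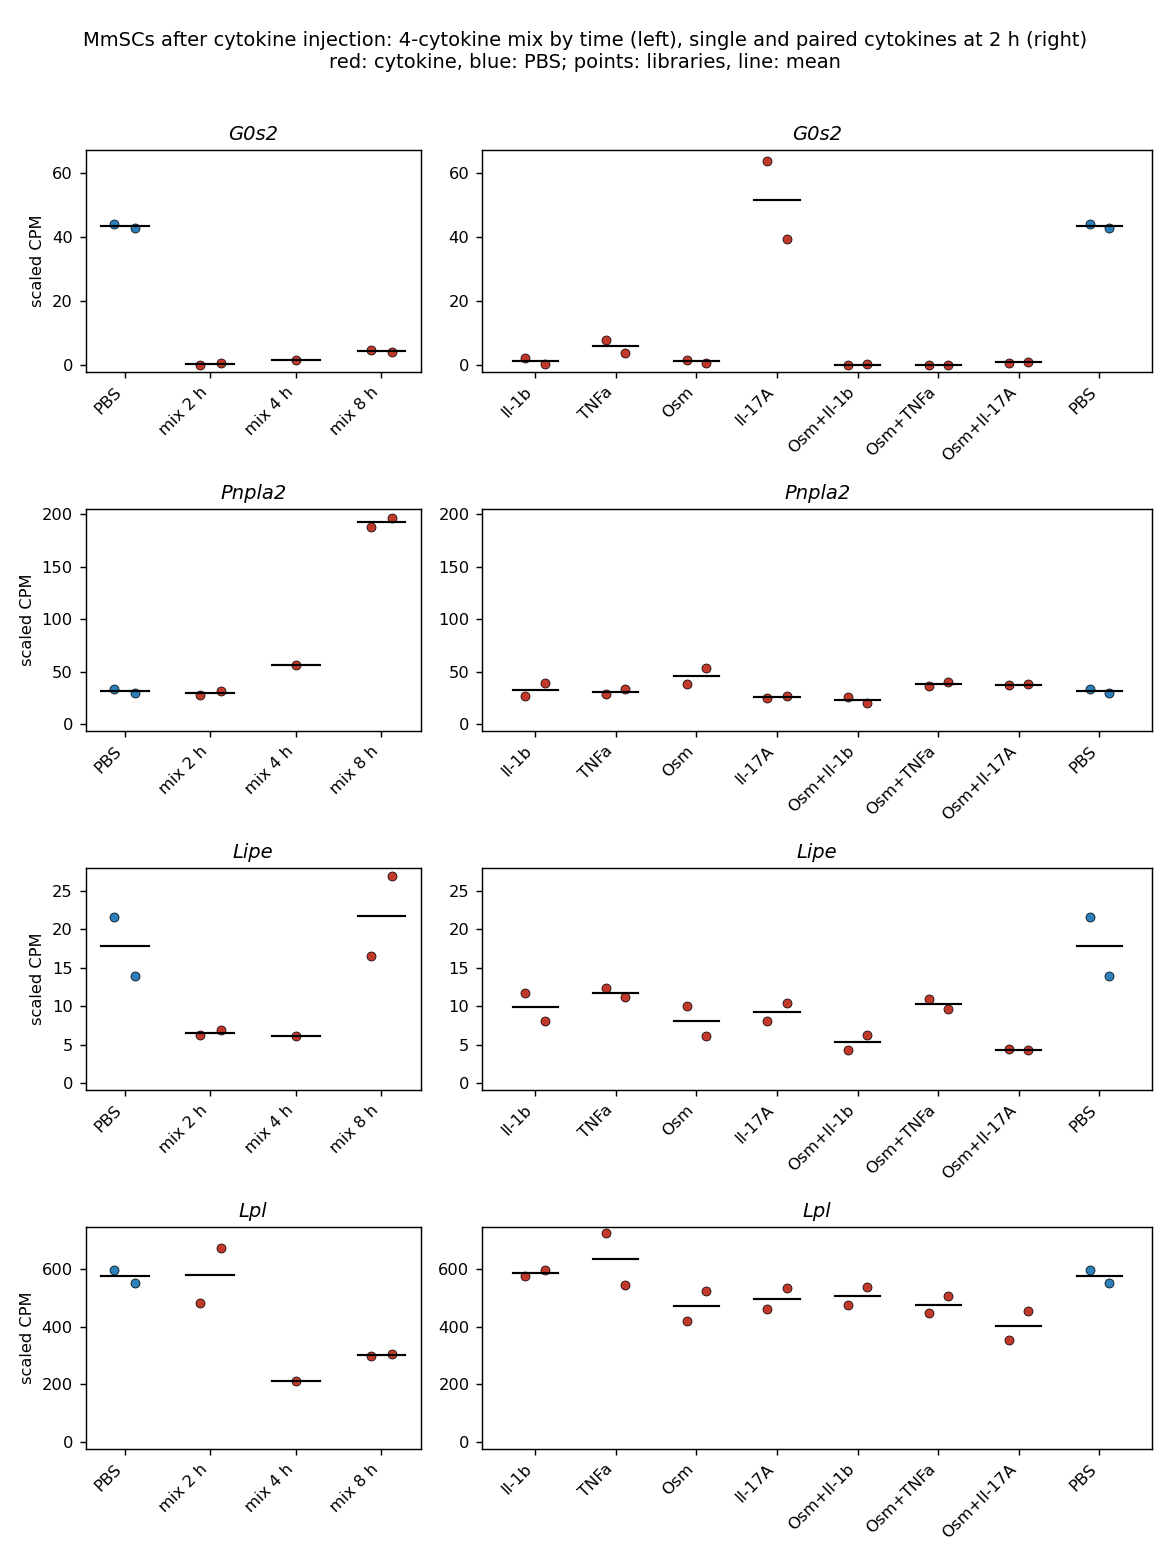
Scaled CPM of G0s2, Pnpla2, Lipe and Lpl in MmSCs, where points are libraries and lines are means. The left panels give PBS and the 4-cytokine mix at 2, 4 and 8 h, and the right panels the single and paired cytokines at 2 h with PBS at the right end. G0s2 stayed near the PBS level only with Il-17A alone, and Pnpla2 was highest at 8 h of the mix.

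Given alone for 2 h, 3 of the 4 cytokines lowered G0s2. It had 2.12 and 0.508 scaled CPM with Il-1b, 8.05 and 3.96 with TNFa and 1.58 and 0.841 with Osm, against 44.1 and 43.0 with PBS. The log2 changes were -5.05 ± 0.56, -2.85 ± 0.45 and -5.15 ± 0.55 (edgeR adjusted p = 7.82e-07, 0.000197 and 4.49e-07). Il-17A left 64.0 and 39.6, on both sides of PBS (0.25 ± 0.40, edgeR adjusted p = 0.803). The levels with Osm and with Il-1b were below that with TNFa by 2.30 ± 0.58 and 2.20 ± 0.60 (edgeR adjusted p = 0.0084 and 0.0223), though neither call held without TNFa replicate 1 (adjusted p = 0.131 and 0.22). The first was also lost without Osm replicate 2 (0.0944) and the second without Il-1b replicate 2 (0.18). These comparisons called 17.8% and 10.3% of all tested genes.

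Few other genes answered a single cytokine. With Il-1b, G0s2 was the 1 gene of 8 called (33.1% of all tested genes called). With TNFa 2 were called (14.8%), the other being Car3, whose 16.0 and 1.13 scaled CPM against 0 and 0.680 with PBS rested on replicate 1 (log2 change 4.61 ± 1.27, 1.68 with an adjusted p of 0.546 without it, and an adjusted p of 0.16 without PBS replicate 1). With Osm 3 were called (34.3%).

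Lipe had 10 and 6.17 scaled CPM with Osm, against 21.6 and 14.0 with PBS (-1.14 ± 0.32, edgeR adjusted p = 0.00931), and Pnpla2 had 38.0 and 53.8, against 33.7 and 29.8 (0.53 ± 0.19, edgeR adjusted p = 0.0386). Neither held without Osm replicate 2 (adjusted p = 0.117 and 0.47) or PBS replicate 1 (0.135 and 0.0738), and Pnpla2 was also lost without PBS replicate 2 (0.218), with DESeq2 (0.0612) and with RLE scaling (0.057). With Il-17A none of the 8 was called (4.95%), 2 had an unadjusted p below 0.05, and DESeq2 also called none.

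In the pairs with Osm, G0s2 was at or near 0. It had 0 and 0.408 scaled CPM with Osm and Il-1b, 2 counts against 664 with PBS, a ratio of 203 (95% interval 56.0 to 1680). It had no count in either library with Osm and TNFa and was at least 80.1-fold lower. It had 0.860 and 1.08 with Osm and Il-17A (-5.46 ± 0.56, edgeR adjusted p = 2.63e-07). Departure from the sum of the single log2 changes could not be read for G0s2 with Il-1b or TNFa beside Osm, since its counts there were under the floor of 3 per library. With Osm and Il-17A it was -0.56 ± 0.85 (edgeR adjusted p = 0.815), where 2.56% of all tested genes were called.

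Lipe fell with Osm and Il-1b (4.29 and 6.33 scaled CPM against 21.6 and 14.0 with PBS, -1.74 ± 0.35, edgeR adjusted p = 0.0004) and with Osm and Il-17A (4.44 and 4.30, -2.02 ± 0.34, edgeR adjusted p = 9.02e-05). Pnpla2 had 25.7 and 20 scaled CPM with Osm and Il-1b, below Osm alone (-1.01 ± 0.20, edgeR adjusted p = 0.0019, 13.0% of all tested genes called) and below the sum of the single changes by 1.06 ± 0.28 (edgeR adjusted p = 0.0135, 15.8% of all tested genes called). That departure was lost without PBS replicate 2, Il-1b replicate 2, Osm replicate 2 or Osm and Il-1b replicate 2 (adjusted p = 0.0673, 0.0848, 0.0999 and 0.0816). Of the 8 genes, 2 were called with Osm and Il-1b (41.9% of all tested genes), 2 with Osm and TNFa (37.0%) and 4 with Osm and Il-17A (35.6%), all of them lower. The calls of Pparg in the second pair (0 counts against 22) and of Cd36 in the third (1 count against 33) were lost without any 1 of the libraries compared (adjusted p = 0.0705 to 0.157 and 0.0603 to 0.174). That of Lpl in the third (-0.51 ± 0.17, edgeR adjusted p = 0.0257) was lost without PBS replicate 1 or Osm and Il-17A replicate 1 (0.116 and 0.237). Endothelial markers summed to 87.5 to 126 scaled CPM with Osm and TNFa and 101 to 129 with Osm and Il-17A, against 216 to 267 with PBS. Of the 8 markers 6 were detected in each group, with Cldn5 at 0 in all 3, and their part in the Pparg and Cd36 values was not tested.

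Related genes of lipid handling moved in both directions around these 10. Genes were grouped by function. Over all tested genes 20.5% were called higher and 18.0% lower at 2 h of the mix, and 15.6% higher and 12.9% lower at 8 h. After 2 h, 8 of 19 tested pro-adipogenic regulators rose and 7 fell (median -0.03). Stat5a, a transcription factor that promotes fat cell formation, rose by 5.0 ± 0.24, and Ebf2, Klf4 and Rxra fell by 1.77 ± 0.22, 1.31 ± 0.18 and 1.80 ± 0.26. Of 15 anti-adipogenic regulators 1 rose and 9 fell (median -0.93), among them Klf3 (-2.38 ± 0.21), the Hedgehog receptor Ptch1 (-2.52 ± 0.43) and the Notch target Hes1 (-2.75 ± 0.54).

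At 8 h, 5 of the 19 pro-adipogenic regulators were higher and 6 lower (median -0.07), with the glucocorticoid-responsive factor Klf15 at 3.28 ± 0.35 and Cebpd at 2.57 ± 0.34. Of the 15 anti-adipogenic regulators 9 were lower and none higher (median -1.41), with Gdf10 at -2.59 ± 0.28 and Wnt5a at -3.16 ± 0.43. After 2 h of the mix Lipg, which encodes endothelial lipase, rose by 8.39 ± 0.52, the 1 riser among 16 tested genes of fatty acid uptake and lipase control, of which 5 fell (median -0.22). In triglyceride and fatty acid synthesis 5 of 25 rose and 5 fell (median -0.22), a share near that over all tested genes in each direction. Acsl4 and Elovl6, which activate and lengthen fatty acids, rose by 3.31 ± 0.23 and 3.12 ± 0.20, and the desaturase gene Scd2 fell by 2.05 ± 0.32. Among droplet genes the coat protein genes Plin3 and Plin2 fell by 1.78 ± 0.20 and 1.53 ± 0.27, and Hilpda, another inhibitor of Pnpla2, rose by 1.89 ± 0.25. Dio2, the thyroid hormone activating enzyme on the brown fat list, rose by 2.92 ± 0.34 at 2 h, while Ucp1, the defining gene of brown fat, was at most 0.169 scaled CPM at 2 h and 0 with PBS.

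One day after injury, regulators of both kinds were lower in MmSCs. Of 20 pro-adipogenic regulators 12 fell and 2 rose (median -0.96), among them Klf4 (-2.23 ± 0.18), Zfp423, a marker of committed fat progenitors (-2.42 ± 0.31), and Klf9 (-1.67 ± 0.25). Of 17 anti-adipogenic regulators 11 fell and none rose (median -1.46), among them Klf2 (-3.00 ± 0.37) and Timp3 (-2.16 ± 0.28). Here 23.6% of all tested genes were called lower and 18.2% higher. Angptl4, a secreted inhibitor of Lpl, rose by 2.84 ± 0.39, and Acsl4 by 1.72 ± 0.22. Lpin1, which makes diacylglycerol, fell by 3.03 ± 0.44 and Ucp2 by 2.74 ± 0.24.

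Thy1.1+ and Thy1.1- MmSCs, both from injured muscle at 12 h, were compared to see what sets reporter-positive cells apart. Of the 10 genes 5 were tested, and none was called, nor was any of the 11975 tested genes (0.0%, with 1258 at an unadjusted p below 0.05 and 177 called by DESeq2). Without pairing none of the 5 had an unadjusted p below 0.05, and DESeq2 called none of the 5. Lpl had 185, 146 and 492 scaled CPM in Thy1.1+ cells, against 194, 315 and 610 in Thy1.1- cells. The libraries pair by number here, and each Thy1.1+ library was below its Thy1.1- partner. With the pair as a block the difference in Lpl was -0.50 (edgeR adjusted p = 0.0538) and that in Fabp4 was 0.87 (edgeR adjusted p = 0.12). These 2 of the 5 then had an unadjusted p below 0.05, none of the 5 was called, and 1286 genes were called in all. Fabp4 had 18.5, 11.9 and 14.5 in Thy1.1+ cells, against 9.95, 2.79 and 15.2 in Thy1.1- cells, which overlapped.

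Loss of Il1b did not move any tested member past the threshold. In MmSCs 1 day after injury, none of 6 tested genes was called between Il1b-KO and Il1b-WT mice, where 1.21% of 12102 genes were, and 1 had an unadjusted p below 0.05. That gene was G0s2, with 0.380, 1.63 and 0.791 scaled CPM in Il1b-KO against 3.75 and 2.39 in Il1b-WT cells, which did not overlap (-1.69 ± 0.58, edgeR adjusted p = 0.256). Lpl had 290, 244 and 306 against 241 and 330 (-0.03 ± 0.14). DESeq2 also called none.

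In DMDmdx MmSCs Pnpla2 was lower at both later ages than at 2.5 weeks. It had 47.2, 27.5 and 52.3 scaled CPM at 2.5 weeks, 10.8, 10.2 and 16.0 at 7 weeks, and 17.9 and 17.9 at 12.5 weeks. Every library at 7 and 12.5 weeks was below every library at 2.5 weeks. The log2 change was -1.79 ± 0.24 at 7 weeks and -1.24 ± 0.28 at 12.5 weeks against 2.5 weeks (edgeR adjusted p = 4.95e-05 and 0.00446). Lpl had 433, 475 and 464 scaled CPM at 7 weeks, against 561, 778 and 661 at 2.5 weeks (-0.55 ± 0.14, edgeR adjusted p = 0.00517). The DMDmdx experiment held no mice without the mutation, so growth with age and the course of disease cannot be told apart.

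Those were the 2 of 6 tested genes called between 7 and 2.5 weeks (44.6% of 13160 genes called, with medians of 0.63 for the 6 and -0.02 for all), Pnpla2 was the 1 between 12.5 and 2.5 weeks (26.3%), and none was called between 12.5 and 7 weeks (5.9%), where 2 had an unadjusted p below 0.05 and DESeq2 called 1, Fabp4 (-3.20, adjusted p = 0.0263). Between 7 and 2.5 weeks 10 of 18 pro-adipogenic regulators fell and 1 rose, where 22.7% of all tested genes were called lower and 21.9% higher, with Ebf2 at -1.63 ± 0.14 and Cebpd at -1.55 ± 0.17, and Angptl4 rose by 3.82 ± 0.23. Endothelial markers summed to 51.1 to 57.9 scaled CPM at 7 weeks, against 376 to 408 at 2.5 weeks, with 8 and 7 of 8 markers detected (Emcn at 0 at 2.5 weeks), and their part was not tested. Between 12.5 and 7 weeks 5 of those 18 regulators rose and none fell, where 3.52% of all tested genes were called higher, Cebpd and Ebf2 among them (1.25 ± 0.18 and 0.98 ± 0.15).

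G0s2 was scarce in every DMDmdx library, at 0 to 2.32 CPM without scaling factors, and in every library of the Il1b-KO and Il1b-WT mice, at 0.376 to 3.83 CPM. Uninjured C57BL/6J MmSCs averaged 88.4 ± 24.8 CPM (SD, n = 3) and those given PBS 51.3 CPM. Injured C57BL/6J MmSCs, the group that shares its injury and day with the Il1b-KO and Il1b-WT cells, averaged 23.6 CPM (range 17.7 to 31.1). Every Il1b-KO and Il1b-WT library was below that range. These are separate experiments, so strain, age and batch cannot be told apart, nor injury where the groups differ in it. No test was made between them.

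Whole injured muscle at 7 days was the one sample type in which all 10 genes could be tested. Adipoq had 38.7, 12.6 and 79.3 scaled CPM under anti-Cxcl5, against 25.9, 50.6 and 78.0 under IgG, and Plin1 had 5.53, 2.31 and 6.92, against 1.59, 1.32 and 7.70. Both varied more within a group than between groups. Car3 had 1230, 1650 and 1560, against 1190, 1590 and 1920, beside muscle fibre markers of 152000 to 169000 and 163000 to 199000 scaled CPM.

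None of the 10 was called, where 4 of 13346 genes (0.03%) were. G0s2 was the 1 member with an unadjusted p below 0.05, at 46.9, 23.7 and 36.6 scaled CPM under anti-Cxcl5 against 76.2, 57.1 and 40.1 under IgG, which overlapped (-0.70 ± 0.27, edgeR adjusted p = 0.832). DESeq2 called none of the 10.

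**Figure D4:**
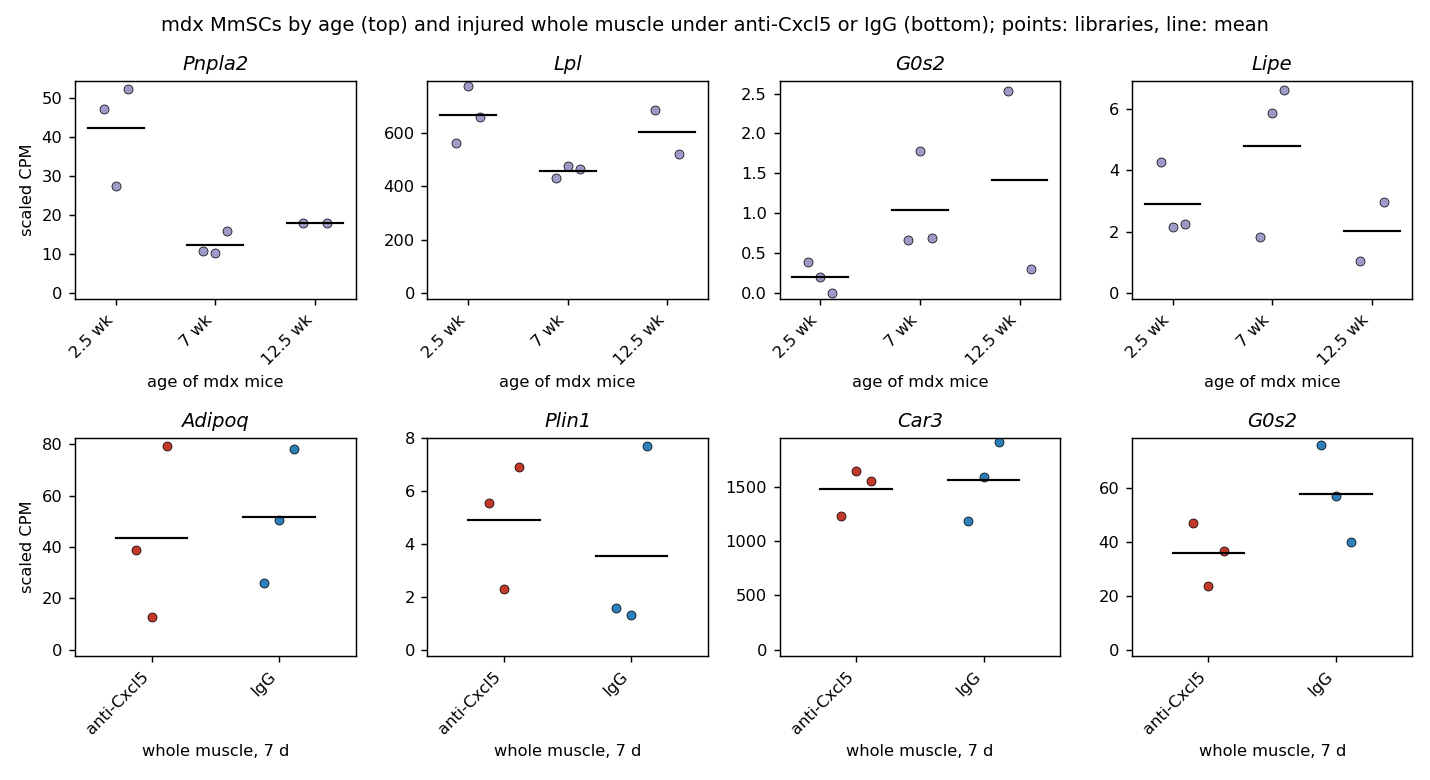
Scaled CPM of Pnpla2, Lpl, G0s2 and Lipe in DMDmdx MmSCs by age (top), and of Adipoq, Plin1, Car3 and G0s2 in whole injured muscle under anti-Cxcl5 and IgG (bottom), where points are libraries and lines are means. Pnpla2 is lower at 7 and 12.5 weeks than at 2.5 weeks, and the anti-Cxcl5 and IgG libraries overlap for all 4 genes.

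Across the 28 group means the 10 genes did not share 1 profile. As a description over groups that share experiments and depth, Pearson's r of log2(CPM + 1) was 0.95 between Pparg and Cd36 and 0.89 between each of them and Fabp4. The genes nearest to Pparg were Arap3, Spint2 and Tspan13 (0.974, 0.968 and 0.961), and those nearest to Cd36 were Tspan13, Slc28a2 and Icam2 (0.987, 0.98 and 0.974). Those nearest to Fabp4 were Esam, Kdr and Cldn5 (0.962, 0.959 and 0.956), 3 genes of endothelium. Adipoq, Plin1 and Car3 tracked each other (0.91 to 0.94), and all 3 were highest in whole muscle. In sorted cells the group means of Adipoq and Plin1 were at most 0.829 and 0.722 CPM. Their r values thus rest mainly on whole muscle against sorted cells. The genes nearest to Adipoq were Dhrs7c, Ppp1r3a and Dusp27 (0.986, 0.986 and 0.984), those nearest to Plin1 were Neb, Tmem117 and Ampd1 (0.951, 0.947 and 0.947), and those nearest to Car3 were Plin1, Neb and Camk2a (0.937, 0.92 and 0.919). Lipe was nearest to Kank3, Prickle3 and Dram2 (0.923, 0.917 and 0.915). Pnpla2 and Lipe had r = 0.82 and G0s2 was at 0.36 with Pnpla2. The genes nearest to G0s2 were Paqr7, R3hdm4 and Ntpcr (0.895, 0.88 and 0.875), those nearest to Pnpla2 were Exoc6, Insr and Frat1 (0.881, 0.87 and 0.869), and those nearest to Lpl were Itm2b, Tcn2 and Stxbp6 (0.871, 0.867 and 0.819).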

How the data were processed

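RNA-seq counts of 55011 gene symbols in 70 libraries were used as deposited. The authors aligned reads with STAR 2.7.3a to GRCm38 (mm10) and counted them per gene with featureCounts, per the submitters' processing notes, while the strand setting is not given in the sources used here. Sorted libraries came from 1000 cells after 2 rounds of sorting and whole muscle libraries from 2 ng of RNA, per the labels' protocols. All columns of the table were used. Replicates differed beyond sampling noise (chi-square per degree of freedom 4.23 to 56), so none was merged.

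Each of the 6 experiments was fitted alone with edgeR 4.0.16 (R 4.3.3): a filter on low counts (minimum count 10), TMM scaling, the quasi-likelihood test, Benjamini-Hochberg adjustment over all tested genes, and a call below 0.05. Errors are standard errors of log2 changes. Scaled CPM use the TMM factors (0.782 to 1.29), and levels across experiments are descriptive. A count of 0 was set at 3 counts per library for a lower bound, and ratios with 1 to 3 counts carry exact 95% binomial intervals for counting error only. Alternatives were DESeq2 1.42.0, RLE scaling, library totals, no filter on low counts, replicate numbers as a block, and leaving out each library. The fits were tested on simulated data.

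Replicate numbers paired libraries only for Thy1.1+ and Thy1.1- cells (correlation of deviations 0.356 to 0.619 in 3 pairs). Elsewhere it was between -0.099 and 0.086. The members and lists were chosen with earlier results of these data known. Genes named beside the 10 were the up to 4 called genes with the smallest p in each list, the marker genes, and for each member the 3 genes with the highest Pearson r over group means, among genes of at least 5 CPM in some group. Sequences and starts are from RefSeq and gene spans and exon lengths from GENCODE M21, both on GRCm38. The per-kilobase length is the union of exons, which for Fabp4 includes a retained intron.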

Additional observations from a re-analysis of the deposited data

Results flagged for a closer look

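The change with injury differed between MmSCs and another compartment for several genes, by a test of the difference itself with edgeR and adjustment over all tested genes. Lpl differed by -1.98 from CD31+ cells, -1.61 from CD45+ cells and -1.0 from MuSCs. Pnpla2 differed by -0.89 from CD31+ cells (adjusted p = 0.0277, lost without any of 7 of the 12 libraries, with adjusted p up to 0.156) and by -1.79 from CD45+ cells. G0s2 differed by -3.90 from CD45+ cells, where it rose in the CD45+ cells and fell in the MmSCs. Cd36 differed by -2.44 from CD45+ cells (adjusted p = 0.0289, and up to 0.163 without 1 library) and by -9.77 from MuSCs, a fitted value that is no bound since Cd36 was at 0 in uninjured MuSCs. Fabp4 differed by 2.28 from CD45+ cells (adjusted p = 0.0276, and up to 0.0791 without 1 library). Car3 differed by -7.84 from MuSCs (adjusted p = 0.0275), and by -3.00 with an adjusted p of 0.367 without uninjured MmSC replicate 1. Pnpla2 with Osm and Il-1b together departed by -1.06 from the sum of the single log2 changes (adjusted p = 0.0135).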

How the results depend on the processing

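Across the 20 comparisons with a control or an earlier age, 45 of 151 gene results passed the threshold. Over the other settings 1370 values stayed on their side of the threshold, 38 passed it newly and 43 lost it. Only 1 turned sign with a call, Lpl at 2 h of the mix (-0.51 on library totals). Values called in neither setting were counted as unchanged whatever their sign. Car3 of uninjured CD31+, CD45+ and MuSC cells against MmSCs turned to 1.42, 1.24 and 1.74 without uninjured MmSC replicate 1 (range without any 1 library -3.65 to 1.42, -4.74 to 1.24 and -3.36 to 1.74). The cause was not tested.

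On library totals, chosen as an alternative after seeing the data, the number of the 8 genes called was 4 at 2 h of the mix (2 as reported), 2 with Il-1b (1), 5 with Osm and Il-1b (2) and 4 with Osm and TNFa (2), and the median of all genes moved by -0.515, -0.318, -0.44 and -0.341. RLE scaling gave 2 with Il-1b. DESeq2 gave 3 at 8 h of the mix (5), 5 in injured CD31+ cells (3) and 1 between 12.5 and 7 weeks (0). Without the filter on low counts it was 5 in injured CD31+ cells and 5 in CD45+ cells (3 each), 1 under anti-Cxcl5 (0), 1 between 12.5 and 7 weeks (0), 2 between 12.5 and 2.5 weeks (1) and 1 with Il1b-KO (0). Leaving out 1 library gave 3 to 4 at 8 h of the mix, 1 to 2 with Il-1b, 1 to 2 with TNFa, 1 to 3 with Osm, 1 to 2 with Osm and TNFa, 2 to 3 with Osm and Il-17A, 1 to 4 in injured CD31+ cells, 2 to 4 in CD45+ cells, and 1 to 2 between 12.5 and 2.5 weeks.

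With the replicate number as a block no count of called members changed: it was 2 at 2 h of the mix, 7 in injured MmSCs and 0 for Thy1.1+ cells, where it raised the calls over all genes to 1286 (0 without it). Over all genes, DESeq2 called 1220 with Il-17A (790), 248 with Il1b-KO (146) and 177 for Thy1.1+ cells (0). Without the filter 594 were called with Il1b-KO, 159 under anti-Cxcl5 (4) and 360 for Thy1.1+ cells, and library totals gave 1993 for the injury difference of MmSCs and MuSCs (1251). With the block, 0 were called under anti-Cxcl5. Adipoq and Plin1 outside whole muscle were limited by counts near the floor of 3 per library. So were Pparg, Cd36 and Fabp4 in part of the MmSC libraries, with fewer than 3 counts in 16, 15 and 17 of 46.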
